A study of Mus musculus with 6 samples.

Results

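The genes described here are the mouse glutathione transferases and the enzymes that make and break down glutathione, measured in whole liver by RNA sequencing. They were chosen by gene name: every alpha, kappa, mu, omega, pi, theta, zeta or microsomal transferase listed in the table, together with Gss, Ggt1, Ggt5, Ggt6, Ggt7, Ggct, Chac2, Oplah, Dpep1 and Anpep. Of 36 names that matched, the pseudogene Gstm2-ps1 was dropped and Gstt4 had a count of 0 in every library, which left 34 members of 55401 listed genes, 24 of them transferases. The livers came from male mice with loxP sites in both alleles of Prdx1, the gene of the peroxide-reducing enzyme peroxiredoxin 1. In 3 mice an albumin-Cre transgene was also present (Alb-Cre Prdx1 fl/fl, called knockout from here on), and the other 3, called control, had only the floxed alleles (Prdx1 fl/fl). The albumin promoter drives Cre mainly in hepatocytes, so the other cells of the liver keep the gene, and the controls carry no Cre. Both genotypes received MCD (the usual abbreviation of a diet lacking methionine and choline) for 5 weeks from an age of 8 weeks, so no liver on a normal diet entered any comparison. The p-values measure the spread among these mice alone.

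Glutathione is a small peptide of glutamate, cysteine and glycine that hepatocytes hold in large amounts. Transferases join its cysteine to reactive, electron-poor compounds, including drugs, lipid peroxidation products and their aldehydes, and the conjugates are then exported into bile or blood. Outside the cell, gamma-glutamyl transferases split off the glutamate, and peptidases free the cysteine and glycine. Inside the cell, Chac2, Ggct and Oplah carry the gamma-glutamyl part back to glutamate. Several transferase genes are classical targets of the transcription factor NRF2, which binds the antioxidant response element.

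Promoter windows are shown for 4 of the members that were called under every scaling, so that the sequence around the start can be read beside the values given further on. Each runs 5′ to 3′ along the gene, from 250 bases before to 50 bases after the RefSeq start, on GRCm38.p6. Capitals mark matches to TGACNNNGC, the core of the antioxidant response element, searched on both strands. Gsta3 lies at chr1:21240335-21240634 on the plus strand, Gstm5 at chr3:107895604-107895903 on the plus strand and Gstm2 at chr3:107986371-107986670 on the minus strand. Ggt1 has 4 such windows on the plus strand, of which those at chr10:75568412-75568711 and chr10:75571310-75571609 are shown. Of the Ggt1 windows not shown, that at chr10:75563882-75564181 held a match and that at chr10:75573245-75573544 held none.
Gsta3: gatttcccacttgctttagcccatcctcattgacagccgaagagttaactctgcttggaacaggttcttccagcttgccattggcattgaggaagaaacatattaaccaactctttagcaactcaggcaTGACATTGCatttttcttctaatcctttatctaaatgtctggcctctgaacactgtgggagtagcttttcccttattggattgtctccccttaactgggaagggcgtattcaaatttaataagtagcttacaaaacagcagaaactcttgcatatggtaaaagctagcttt
Gstm5: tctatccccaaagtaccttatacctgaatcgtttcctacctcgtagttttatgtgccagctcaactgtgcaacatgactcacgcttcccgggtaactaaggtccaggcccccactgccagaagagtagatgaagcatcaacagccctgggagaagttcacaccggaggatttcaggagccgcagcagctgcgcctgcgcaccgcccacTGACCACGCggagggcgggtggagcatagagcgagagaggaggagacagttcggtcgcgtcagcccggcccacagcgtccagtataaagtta
Gstm2: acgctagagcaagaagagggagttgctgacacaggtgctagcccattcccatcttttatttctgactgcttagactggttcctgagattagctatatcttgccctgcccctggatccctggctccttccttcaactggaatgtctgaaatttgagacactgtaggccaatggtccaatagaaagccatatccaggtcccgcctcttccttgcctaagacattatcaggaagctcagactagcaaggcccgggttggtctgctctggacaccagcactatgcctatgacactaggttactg
Ggt1, first window shown: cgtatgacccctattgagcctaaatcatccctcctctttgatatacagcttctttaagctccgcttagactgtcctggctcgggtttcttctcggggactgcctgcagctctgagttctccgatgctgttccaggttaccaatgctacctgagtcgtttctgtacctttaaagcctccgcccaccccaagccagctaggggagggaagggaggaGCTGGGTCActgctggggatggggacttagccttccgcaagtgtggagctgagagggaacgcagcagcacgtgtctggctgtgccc
Ggt1, second window shown: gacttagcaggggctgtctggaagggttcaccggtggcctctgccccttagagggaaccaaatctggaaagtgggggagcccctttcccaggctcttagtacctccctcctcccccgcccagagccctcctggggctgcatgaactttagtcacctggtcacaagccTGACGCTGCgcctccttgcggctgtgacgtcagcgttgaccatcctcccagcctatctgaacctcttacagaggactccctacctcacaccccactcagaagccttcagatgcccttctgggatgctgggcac

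The match of Gsta3 was TGACATTGC, beginning 121 bases before the start, and that of Gstm5 was TGACCACGC, beginning 42 bases before it. Gstm2 had no match in this window. Neither had Anpep, Chac2, Dpep1, Ggt7 or Gstz1, the other members called under every scaling that have a RefSeq window. In the first Ggt1 window the match read GCTGGGTCA along the gene, which is the motif on the opposite strand, and in the second it read TGACGCTGC. Of 30 members with a RefSeq window, 6 held the motif (Ggct, Ggt1, Gsta3, Gstm5, Gstm7 and Mgst1), against 14.0% of 27025 genes in the whole table. Counted by window, 8 of 42 member windows held it (19.0%), against 12.4% of 32851 windows. Members with the motif rose, fell or did not pass the test, so these matches are a description only. Gsta4, Ggt5, Oplah and Gstt2 had no window in the table.

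The libraries held 58790874, 78291273 and 77300027 deposited counts in the knockout and 63189210, 67319086 and 66115966 in the control. Prdx1 itself, the targeted gene, had 78.7, 111 and 75.4 CPM (counts scaled to a common effective library size) in the knockout, against 644, 570 and 663 CPM in the control. That is 14.1% of the control level (log2 fold change -2.82 ± 0.17 SE, edgeR adjusted p = 4.4e-05; exact two-sided permutation p = 0.1, the smallest that 3 against 3 allows). All 9 bile duct marker genes and all 9 macrophage marker genes rose, as did 8 of 9 stellate and fibroblast markers, while 8 of 9 hepatocyte markers fell. Summed over each list, bile duct markers ranged over 1158 to 1345 CPM in the knockout and 87.6 to 99.3 CPM in the control, and hepatocyte markers over 53025 to 66800 CPM in the knockout and 91021 to 113139 CPM in the control. The macrophage sum was 2098 to 2190 CPM in the knockout and 900 to 981 CPM in the control, and the stellate sum 2067 to 2424 CPM in the knockout and 708 to 788 CPM in the control. Of 8 endothelial markers 3 were higher and 1 lower (4 higher with library sizes alone), and of 7 lymphocyte markers 3 were higher and 1 lower. The median log2 fold change of the hepatocyte markers was -0.81, and -0.44 with library sizes alone. The part of these cell types in the results below was not tested. In whole liver, fewer cells of a type and less RNA per cell cannot be told apart.

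All 34 members passed the filter on low counts. Ggt1 passed it through the knockout alone, with 164, 253 and 182 deposited counts there and 3, 0 and 0 in the control. Mgst2 also relied on the knockout, with 27, 33 and 16 there and 0, 4 and 16 in the control. The counts of higher members below include Ggt1, which thus entered by way of the group where it is high. With edgeR's quasi-likelihood test and an adjusted p below 0.05 over all 18931 genes tested, 5 members were higher and 13 lower in the knockout, and 16 did not pass. The call rate of the members was 52.9%, against 37.9% of all tested genes. By direction, 19.9% of all tested genes were called higher and 18% lower. A change of at least 2-fold was called for 7 members (Gsta3, Gstm2, Anpep, Dpep1, Ggt1, Ggt5 and Ggt7), where 16.1% of all tested genes met that rule. Without regard to any test, the knockout libraries lay wholly above the controls for 5 members and wholly below for 16, against 28.8% and 24.2% of all tested genes (53% in either direction). The median log2 fold change was -0.28 over the members and 0.05 over all tested genes.

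How many members counted as lower depended on the scaling. With library sizes alone in place of trimmed-mean (TMM) factors, the median of all tested genes was 0.41 on the log2 scale, against 0.05 with TMM factors, and 7 members were higher and 5 lower. Under that scaling 34.1% of all tested genes were called higher and 6.6% lower (40.7% in all). The deposited FPKM values, tested with limma, also gave 7 higher and 5 lower members, where 32.4% of genes were called higher and 6.81% lower (39.2% in all). Gsta3, Gstm2, Gstz1, Anpep and Chac2 were lower, and Ggt1, Ggt5, Ggt7, Dpep1 and Gstm5 higher, under each of the TMM, relative-log, library-size and FPKM scalings. The other 8 (Ggct, Gstk1, Mgst1, Gstm4, Gstm6, Gstp1, Gss and Gstt1) were lower only with TMM or relative-log factors. Set against the median over all tested genes, the members below it were 25 of 34 for TMM, 25 of 34 for library sizes alone and 21 of 32 for FPKM.

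**Figure D1:**
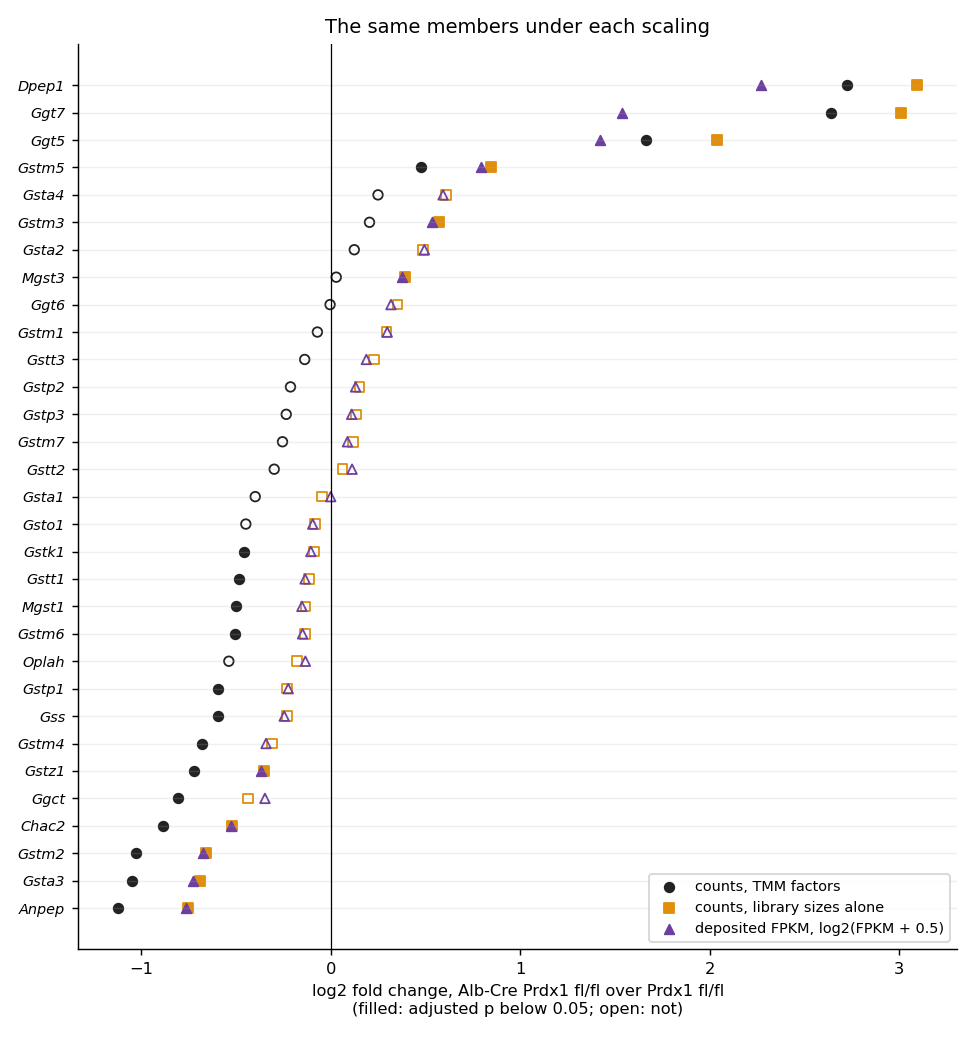
Log2 fold change, Alb-Cre Prdx1 fl/fl over Prdx1 fl/fl (horizontal axis), of the members under each scaling, with Ggt1, Mgst2 and Gsto2 not drawn. Filled symbols have an adjusted p below 0.05 and open ones do not. Most values shift to the right with library sizes alone and with FPKM, where 7 members are higher and 5 lower, against 5 and 13 with TMM factors. These counts include Ggt1, which was higher under each scaling.

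Measured as FPKM, which allows genes of different length to be set side by side, Gstm1 was the most abundant member, followed by Mgst1, Gstp1, Gstm3, Gsta3, Gstp2, Gstm2 and Gstt1. The order depends on the length used, and here that was 99.4 to 101.6% of a gene's merged exons, over 32 members. For Gsta3 it was 4321 bases, against 2792 for its longest transcript and 1457 for its longest coding one. By CPM per kb of the longest transcript the same 8 led, with Gstm2 ahead of Gstp2. Gstm1 had 1155 ± 34.4 FPKM in the knockout and 955 ± 209 FPKM in the control (SD, n = 3 each). The lowest levels were those of Ggt7, Ggt1, Gsto2 and Mgst2. As a share of all counts, the members together made up 0.593 ± 0.0218% in the knockout and 0.607 ± 0.0747% in the control (SD, n = 3 each), a difference smaller than the spread between the control libraries.

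**Figure D2:**
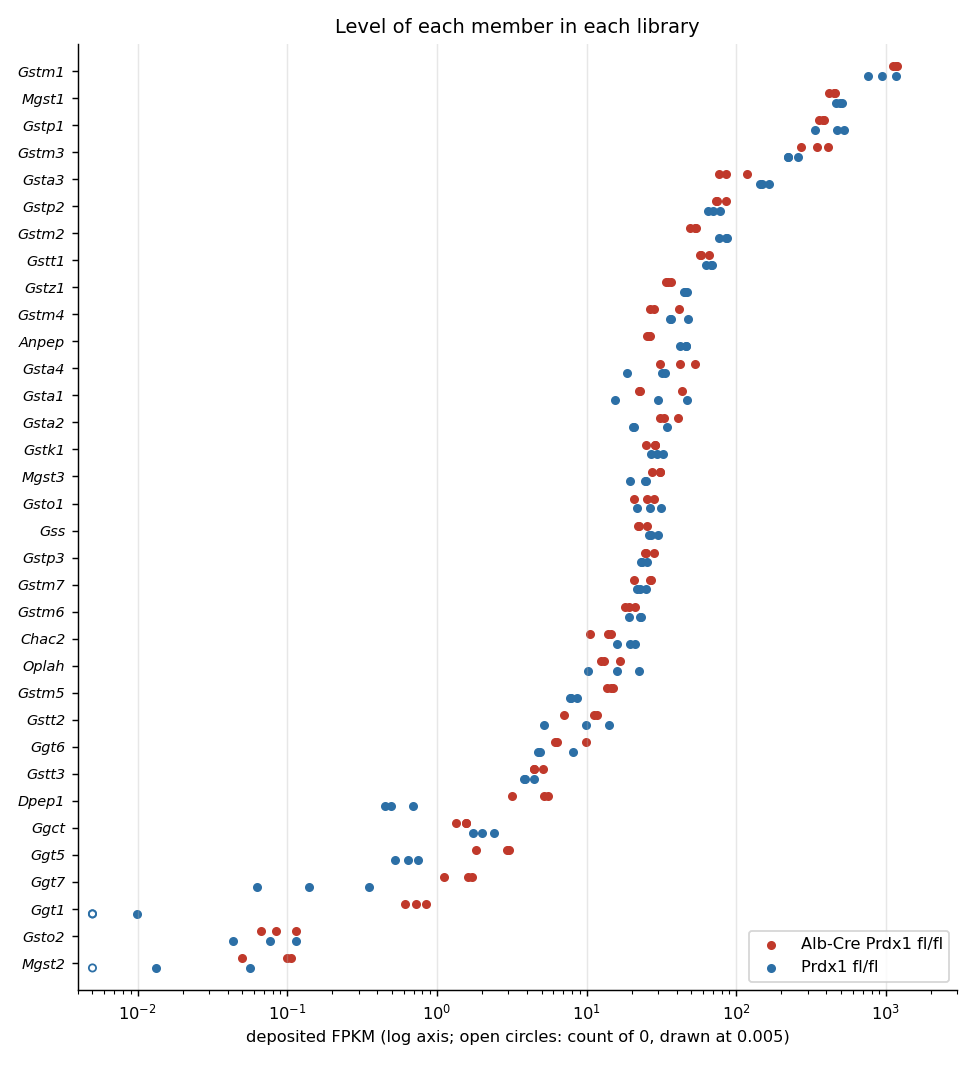
Deposited FPKM (log axis) of each of the 34 members in each of the 3 Alb-Cre Prdx1 fl/fl and 3 Prdx1 fl/fl libraries, ordered by mean FPKM; open circles are a count of 0, drawn at 0.005. Gstm1 leads in both genotypes, and Ggt1 has open circles in 2 control libraries.

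Gsta3 was the alpha-class member that changed. The alpha class conjugates and reduces lipid peroxidation products, among other substrates. Gsta3 (ENSMUSG00000025934, chr1:21240589-21265661) had 320, 355 and 517 CPM in the knockout, against 794, 786 and 885 CPM in the control. Its groups did not overlap, knockout 3 being the highest of the knockouts, and the knockout mean was 48.3% of the control mean. The fall (log2 fold change -1.05 ± 0.18 SE, edgeR adjusted p = 0.00289) was also called with library sizes alone (-0.69, adjusted p = 0.01). Gsta3 is the gene whose window above has TGACATTGC. Among transferase counts its share was 8.15 ± 1.59% in the knockout and 13.2 ± 0.865% in the control (SD, n = 3 each).

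The remaining alpha genes did not pass. Gsta4, which prefers the aldehyde 4-hydroxynonenal, averaged 52.2 ± 15.0 CPM in the knockout and 44 ± 12.6 CPM in the control (SD, n = 3 each). Gsta1 averaged 27.7 ± 12.1 CPM in the knockout and 36.6 ± 18.4 CPM in the control, and its groups overlapped. For Gsta2 the means were 40.2 ± 7.15 CPM in the knockout and 36.9 ± 11.8 CPM in the control, also with overlap. Of 150-base windows along their transcripts, 73.7% for Gsta1 and 26.8% for Gsta2 occur in another gene of the family, so single-copy values of these are uncertain. In every alpha gene the highest knockout library was knockout 3 and the highest control library was control 3.

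**Figure D3:**
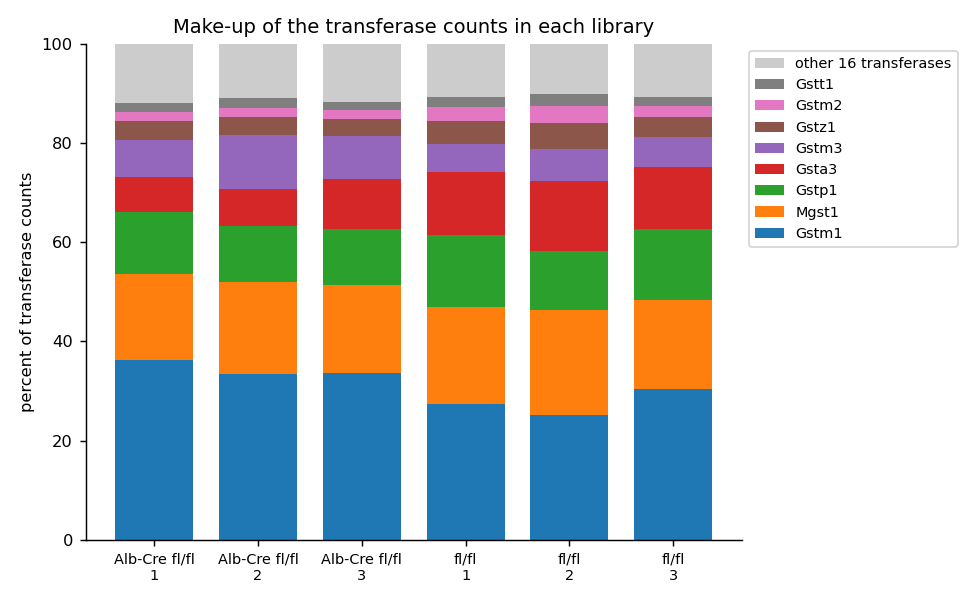
Percent of all transferase counts (vertical axis) held by each abundant transferase in each of the 3 Alb-Cre Prdx1 fl/fl and 3 Prdx1 fl/fl libraries. Gstm1 holds 34.4 ± 1.58% in the knockout and 27.6 ± 2.63% in the control, while Gsta3 holds 8.15 ± 1.59% in the knockout and 13.2 ± 0.865% in the control (SD, n = 3 each).

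The mu-class genes are clustered on chromosome 3 and differed from each other. Gstm1 (chr3:108012255-108017973) had 1660, 1576 and 1749 CPM in the knockout, against 1705, 1398 and 2136 CPM in the control, and these groups overlapped. Its log2 fold change was -0.07 ± 0.15 SE with a 95% interval of -0.42 to 0.28 (edgeR adjusted p = 0.749), turning to 0.29 (adjusted p = 0.155) with library sizes alone. Gstm2 (chr3:107981702-107986453) had 78.7, 87.3 and 90.0 CPM in the knockout, against 177, 185 and 160 CPM in the control. Every knockout library was far below every control, and Gstm2 fell under each scaling (log2 fold change -1.03 ± 0.09 SE, edgeR adjusted p = 0.000227; -0.66 with library sizes alone, adjusted p = 0.000979).

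Gstm3 (chr3:107963696-107969283), another abundant mu transferase, had 340, 515 and 458 CPM in the knockout, against 357, 363 and 419 CPM in the control. Knockout 1 was the lowest of the 6 libraries and knockouts 2 and 3 the highest, so the groups overlapped (log2 fold change 0.20 ± 0.15 SE, edgeR adjusted p = 0.346). With library sizes alone it was called higher (0.57, adjusted p = 0.0194). Gstm5 (chr3:107895821-107898686), a mu transferase described mainly in brain and testis, had 16.9, 18.4 and 18.8 CPM in the knockout, against 12.3, 12.8 and 13.8 CPM in the control. Those groups did not overlap, and Gstm5 was the only transferase called higher with TMM factors (log2 fold change 0.48 ± 0.11 SE, edgeR adjusted p = 0.0128); with library sizes alone Gstm3 and Mgst3 were higher too. Of its exon bases, 13.9% overlap 4933431E20Rik on the opposite strand, which averaged 16.7 CPM in the knockout and 7.15 CPM in the control; whether counting used strand is not given in the sources used here.

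Gstm6 averaged 37.9 ± 2.19 CPM in the knockout and 53.9 ± 5.92 CPM in the control, and Gstm4 53.2 ± 12.8 CPM in the knockout and 85.3 ± 13.6 CPM in the control (SD, n = 3 each). Both fell with TMM factors (log2 fold changes -0.51 ± 0.11 and -0.68 ± 0.19 SE; edgeR adjusted p = 0.00829 and 0.0229) and did not pass with library sizes alone. Gstm4 also failed to pass without knockout 2 (adjusted p = 0.0734), without knockout 3 (0.0722) or without control 3 (0.0708). Gstm7 did not pass (log2 fold change -0.26 ± 0.11 SE, edgeR adjusted p = 0.105).

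The pi class, which conjugates small electrophiles and modifies stress signalling, was led by Gstp1 (chr19:4035407-4037985). Gstp1 had 571, 533 and 590 CPM in the knockout, against 902, 655 and 1003 CPM in the control. Every knockout library was below every control, with control 2 closest to them. The fall passed with TMM factors (log2 fold change -0.60 ± 0.15 SE, edgeR adjusted p = 0.0176) but not with library sizes alone (-0.23, adjusted p = 0.269). It was also lost without knockout 1 (adjusted p = 0.0555), knockout 2 (0.0661), control 1 (0.0601) or control 3 (0.0513).

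Gstp2 (chr19:4040285-4046023), 2.3 kb from Gstp1, had 78.9, 78.6 and 96.1 CPM in the knockout, against 106, 91.0 and 97.1 CPM in the control. These groups overlapped, and the difference did not pass (log2 fold change -0.21 ± 0.11 SE, edgeR adjusted p = 0.173; 0.15 with library sizes alone). Of 150-base windows, 41.8% of Gstp1 and 49.4% of Gstp2 occur in the other or in the pseudogene Gstp-ps, so how reads were shared between them is uncertain. Gstp3 averaged 22.9 ± 1.55 CPM in the knockout and 27.0 ± 1.14 CPM in the control (SD, n = 3 each) and did not pass. In mouse liver the pi class is known to be higher in males than in females. A list of 9 other male-biased liver genes was lower in the knockout for all 9 (median log2 fold change -4.07; 8 of 9 with library sizes alone), with summed levels of 276 to 315 CPM in the knockout and 2279 to 2465 CPM in the control; its relation to the pi class was not tested.

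The theta, zeta and kappa classes hold few genes each. Gstt1 (chr10:75783813-75798584), which acts on small halogenated compounds, had 84.3, 96.8 and 89.8 CPM in the knockout, against 118, 132 and 129 CPM in the control. Its groups did not overlap, and it fell with TMM factors (log2 fold change -0.48 ± 0.09 SE, edgeR adjusted p = 0.00437) but not with library sizes alone (-0.12, adjusted p = 0.358). Gstt2 (log2 fold change -0.30 ± 0.35 SE, edgeR adjusted p = 0.549; 0.061 with library sizes alone) and Gstt3 (-0.14 ± 0.13 SE, adjusted p = 0.443; 0.23 with library sizes alone) did not pass. Gstz1 (chr12:87147165-87164723), the maleylacetoacetate isomerase of tyrosine breakdown, had 179, 172 and 175 CPM in the knockout, against 293, 293 and 281 CPM in the control. The 2 groups stood well apart, and Gstz1 was lower under every alternative tried (log2 fold change -0.72 ± 0.07 SE, edgeR adjusted p = 0.000314). Of its exon bases, 9.1% overlap Pomt2 on the opposite strand, a gene that also fell with TMM factors (log2 fold change -0.64).

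Gstk1, a mitochondrial and peroxisomal transferase, averaged 39.3 ± 2.16 CPM in the knockout and 54.0 ± 4.52 CPM in the control (SD, n = 3 each), a fall with TMM factors (log2 fold change -0.46 ± 0.10 SE, edgeR adjusted p = 0.00829) that did not pass with library sizes alone (-0.09, adjusted p = 0.558). Gsto1, an omega transferase with thiol-reducing activity, averaged 49.0 ± 7.54 CPM in the knockout and 66.8 ± 11.7 CPM in the control and did not pass with edgeR (log2 fold change -0.45 ± 0.16 SE, adjusted p = 0.0623), while it was called by DESeq2 (adjusted p = 0.0334), with a replicate block (0.0133) and without control 2 (0.0308). Gsto2 did not pass (edgeR adjusted p = 0.888).

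Mgst1 (chr6:138140316-138156755), a membrane transferase of the endoplasmic reticulum and mitochondria that also reduces lipid hydroperoxides, had 798, 876 and 918 CPM in the knockout, against 1226, 1176 and 1264 CPM in the control. Its groups did not overlap, and it fell with TMM factors (log2 fold change -0.50 ± 0.09 SE, edgeR adjusted p = 0.00307) but did not pass with library sizes alone (-0.13, adjusted p = 0.233). Mgst3 did not pass with TMM factors (0.03 ± 0.12 SE, edgeR adjusted p = 0.886). Mgst2 was near 0, with 0.398, 0.364 and 0.189 CPM in the knockout and 0, 0.0684 and 0.274 CPM in the control.

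**Figure D4:**
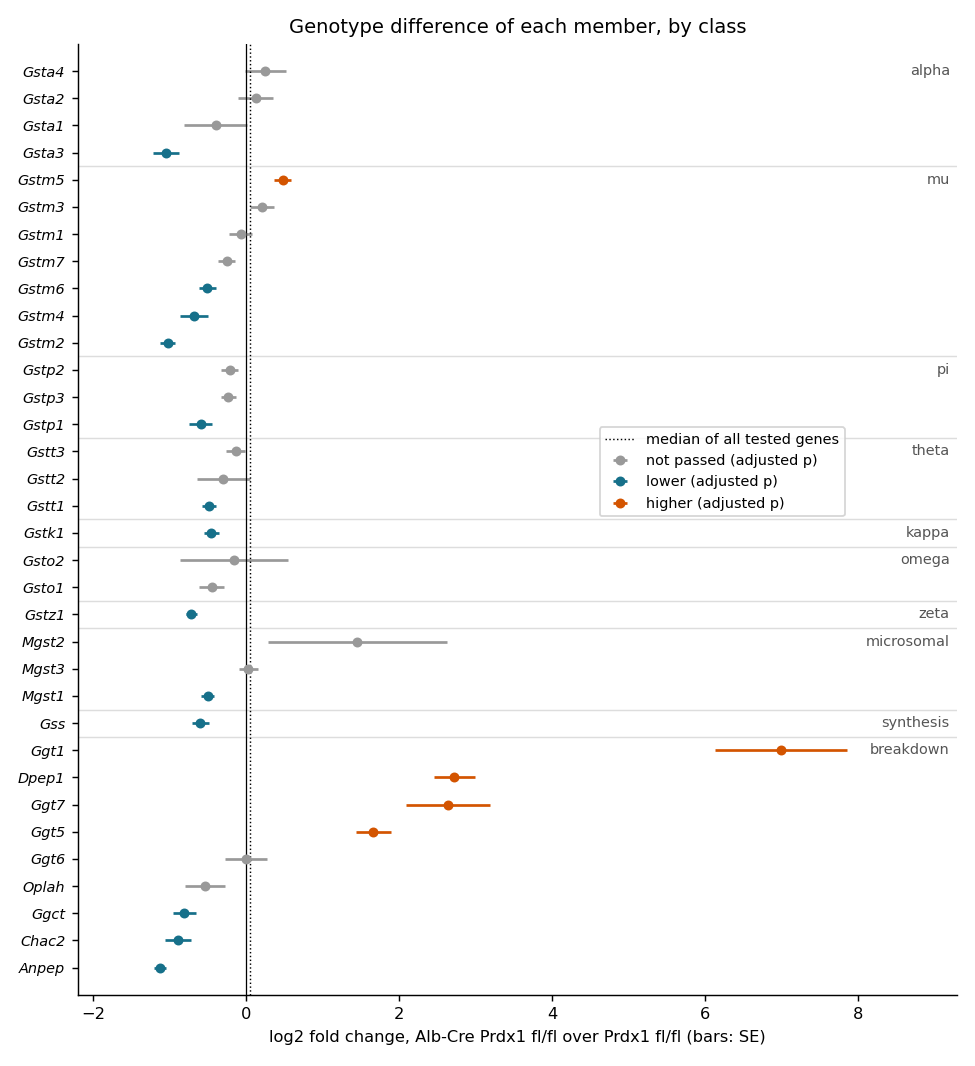
Log2 fold change with its SE, Alb-Cre Prdx1 fl/fl over Prdx1 fl/fl (horizontal axis), of each of the 34 members, arranged by class; colour gives the call, and the dotted line is the median of all tested genes. Among the transferases only Gstm5 is called higher, while Ggt1, Dpep1, Ggt7 and Ggt5 stand to the right among the breakdown genes.

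Gss, the enzyme that adds glycine in the last step of glutathione synthesis (chr2:155563181-155592810), had 127, 126 and 151 CPM in the knockout, against 189, 201 and 221 CPM in the control. All knockout libraries were lower (log2 fold change -0.60 ± 0.11 SE, edgeR adjusted p = 0.0036), but the fall did not pass with library sizes alone (-0.23, adjusted p = 0.092). Of the Gss exon bases, 6.7% overlap Acss2 on the opposite strand, a gene that also fell with TMM factors (log2 fold change -0.76).

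The 9 genes of glutathione breakdown split by direction: Ggt1, Ggt5, Ggt7 and Dpep1 were higher, Anpep, Chac2 and Ggct lower, and Ggt6 and Oplah did not pass. Ggt1, the gamma-glutamyl transferase on the cell surface (chr10:75561604-75586191), had 164, 253 and 182 deposited counts in the knockout, against 3, 0 and 0 in the control. Only knockout livers held more than a handful of counts, 599 in all against 3, so the ratio of summed levels was 142 with a counting interval of 48.4 to 691. Low counts pile up at multiples of 4, so a read pair may be worth several deposited counts. After division by 4, the knockout sum was rounded to 150 and the control sum rounded up to 1, which gave a ratio of 107 (18.9 to 4243). The drop from 142 reflects that rounding. Both intervals cover counting error only. The fitted log2 fold change of Ggt1, 7.00 ± 0.86 SE (edgeR adjusted p = 0.000761), depends on how counts of 0 are handled, and was 10.47 without control 1. Since Ggt1 passed the count filter through the knockout alone, its adjusted p is a description only.

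Ggt5, a relative that acts on the conjugate leukotriene C4 (chr10:75589340-75617200), begins 3.1 kb from Ggt1 on the same strand. It had 16.7, 17.3 and 10.9 CPM in the knockout, against 5.53, 3.95 and 4.69 CPM in the control. All 3 knockouts lay above the controls (log2 fold change 1.66 ± 0.22 SE, edgeR adjusted p = 0.00111). Ggt7, a family member whose enzymatic role is not settled (chr2:155490379-155514848), had 5.41, 5.04 and 3.67 CPM in the knockout, against 1.41, 0.273 and 0.582 CPM in the control. Its groups did not overlap, and it rose (log2 fold change 2.64 ± 0.55 SE, edgeR adjusted p = 0.00731), with 3.45 when control 1 was left out (adjusted p = 0.00256), and 6% of its exon bases overlap Acss2 on the opposite strand, a gene that fell.

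Dpep1, a membrane dipeptidase that splits cysteinylglycine (chr8:123186242-123201812), had 12.4, 13.2 and 8.04 CPM in the knockout, against 2.14, 1.42 and 1.54 CPM in the control. The lowest knockout library was well above the highest control (log2 fold change 2.72 ± 0.27 SE, edgeR adjusted p = 0.000283). Dpep1 and Ggt1 are abundant in kidney tubules, and of 4 kidney markers, Slc34a1, Umod and Kap had a count of 0 in all 6 libraries and Slc22a6 had 0.0714 CPM in control 1 and 0 in the rest. Bile duct marker sums, at 1158 to 1345 CPM in the knockout and 87.6 to 99.3 CPM in the control, moved in the same direction as Ggt1, Ggt5, Ggt7 and Dpep1. So did the macrophage sums (2098 to 2190 CPM in the knockout, 900 to 981 CPM in the control). The stellate and fibroblast sums rose as well (2067 to 2424 CPM in the knockout, 708 to 788 CPM in the control). The part of these cell types in the rise was not tested.

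Anpep, aminopeptidase N, which removes amino acids from peptides at the cell surface (chr7:79821803-79848210), had 106, 103 and 106 CPM in the knockout, against 234, 218 and 236 CPM in the control. It was at 45.9% of the control, with groups far apart (log2 fold change -1.12 ± 0.08 SE, edgeR adjusted p = 6.86e-05; -0.76 with library sizes alone, adjusted p = 0.000274). Hepatocyte markers fell alongside it, with a median log2 fold change of -0.81 with TMM factors. Of the members called lower, only Anpep, Gsta3, Gstm2 and Chac2 fell further than that. The part of hepatocytes in these falls was not tested. Chac2, which degrades glutathione in the cytosol (chr11:30976707-30986350), averaged 16.6 ± 2.96 CPM in the knockout and 30.8 ± 4.5 CPM in the control (SD, n = 3 each; log2 fold change -0.89 ± 0.17 SE, edgeR adjusted p = 0.0051). It was nearer the threshold with library sizes alone (-0.52, edgeR adjusted p = 0.036). With FPKM and no filter Chac2 did not pass (limma adjusted p = 0.057). Ggct, the gamma-glutamylcyclotransferase, fell with TMM factors (log2 fold change -0.81 ± 0.15 SE, edgeR adjusted p = 0.00422) and did not pass with library sizes alone (-0.44, adjusted p = 0.0516). Ggt6, a further gamma-glutamyl transferase family member, averaged 13.3 ± 4.24 CPM in the knockout and 13.4 ± 4.17 CPM in the control (SD, n = 3 each), with overlapping groups. Oplah, the 5-oxoprolinase, averaged 80.4 ± 15.2 CPM in the knockout and 117 ± 43.3 CPM in the control (SD, n = 3 each) and did not pass, except without control 2 (-0.78, adjusted p = 0.0269).

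**Figure D5:**
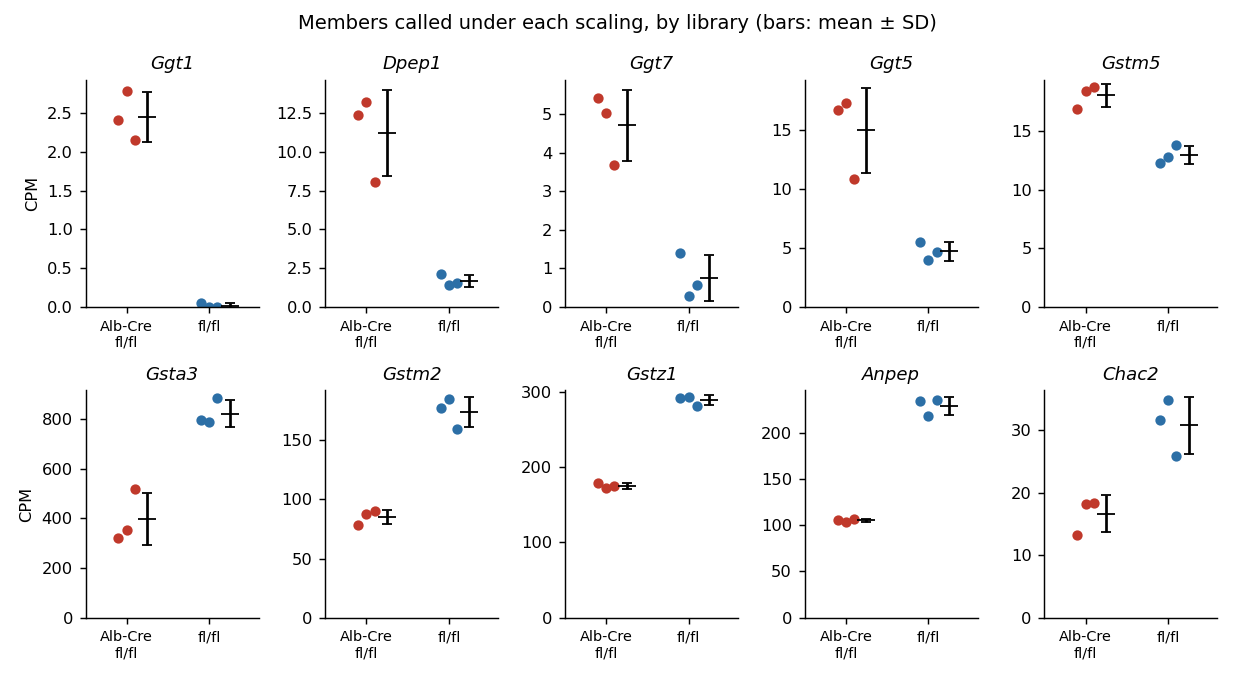
CPM (vertical axis) in each of 3 Alb-Cre Prdx1 fl/fl and 3 Prdx1 fl/fl libraries (points, with bars at mean ± SD) for the 10 members called with TMM, relative-log, library-size and FPKM scaling. Gsta3, Gstm2, Gstz1, Anpep and Chac2 lie lower in the knockout and Dpep1, Ggt1, Ggt5, Ggt7 and Gstm5 higher, with no overlap between the groups.

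Spread among libraries of a genotype was close to that of other genes. The median coefficient of variation over 32 members with a mean CPM of at least 1 was 11.7% in the knockout and 13.4% in the control, against 10.5% in the knockout and 12.8% in the control over 14609 genes. Control 2 was the lowest control in 18 of the 32 members, against 33.7% of all genes at that level. Those 18 include Ggt1, where controls 2 and 3 tied at a count of 0. Control 3 was the highest in 16 of the 32, against 35.04% of all genes at that level. Gsta1, Gstt2 and Oplah spread widely, with controls at 18.8 to 55.6 CPM for Gsta1, 27.1 to 72.8 CPM for Gstt2 and 75.1 to 162 CPM for Oplah. Ggt7, a called member at a low level, spread more for its level, with controls at 0.273 to 1.41 CPM. Its control coefficient of variation was 77.8%, against 50.4% for Gsta1.

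Other genes of the pathway, taken from lists by role, were read with the same test. Under it 19.9% of all tested genes were higher and 18% lower with TMM factors. The library-size scaling put these 2 shares at 34.1% and 6.6%, beside which the list counts under that scaling are to be read. Of 7 genes of glutathione synthesis and cystine supply, 3 were lower with TMM factors (Gclc at a log2 fold change of -0.80, edgeR adjusted p = 0.00934; Slc7a11 at -0.87, adjusted p = 0.0409; Cbs at -0.50, adjusted p = 0.0139). Of 6 genes that use or recycle glutathione for peroxides and disulfides, 4 were lower with TMM factors, including glutathione reductase Gsr (-0.49) and the peroxidases Gpx1 (-0.72) and Gpx4 (-0.56). With library sizes alone, an alternative applied to these lists after seeing the data, Gclc (-0.42, edgeR adjusted p = 0.0944), Gpx1 (-0.36, adjusted p = 0.0662) and the other genes named from these 2 lists did not pass. The list medians were -0.50 and -0.52 with TMM factors and -0.13 and -0.16 with library sizes alone, against 0.05 and 0.41 over all tested genes.

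Among 9 genes of conjugate export and mercapturate formation, 2 were higher and 4 lower with TMM factors (median -0.09), against 4 higher and 3 lower with library sizes alone (median 0.27). The exporter Abcc1 was higher (log2 fold change 0.87, and 1.24 with library sizes alone), and Nat8, the acetyltransferase that completes mercapturates, was lower (-2.27, edgeR adjusted p = 0.00118; -1.91 with library sizes alone, adjusted p = 0.00166). Of 11 tested glutathione users and glyoxalase genes, 2 were higher and 5 lower with TMM factors (median -0.40), against 4 higher and 1 lower with library sizes alone (median -0.03). Hpgds, the prostaglandin D synthase of the sigma transferase family, was higher (2.14; 2.50 with library sizes alone), and the glyoxalase Hagh was lower (-1.06; -0.69 with library sizes alone, edgeR adjusted p = 0.000977). Of 9 NRF2 axis genes, 4 were lower and 5 did not pass with TMM factors (median -0.30), against 2 higher, 1 lower and 6 not passed with library sizes alone (median 0.07). Srxn1 was lower under either (-1.20 and -0.83). Nfe2l2, the gene of NRF2 itself, had 0.23 with TMM factors and did not pass (edgeR adjusted p = 0.0723). It was called higher with library sizes alone (0.59, edgeR adjusted p = 0.00134) and with FPKM (0.57, limma adjusted p = 0.00213). The medians of all tested genes under those 2 scalings were themselves 0.41 and 0.26.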

How the data were processed

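Liver RNA of 6 mice, 3 per genotype, was sequenced as stranded, poly(A)-selected libraries with unique molecular identifiers, per the labels' protocols. The authors' tools, per the submitters' processing notes, included cutadapt 1.9, HISAT2 2.0.4, UMI-tools and StringTie 1.3.4d, with no roles given, and the notes list mm9. The table's positions fit GRCm38, where 51957 of 55141 gene identifiers (94.2%) sit at the same place in GENCODE M21. Of the members, 27 of 34 do. The column names wt and AlbCRE, per the file headers, were matched to the genotypes by Alb-Cre. The deposited values are estimated counts, which are whole but pile up at multiples of 4 (854 genes at 4 in control 1, against 280 at 3), and FPKM values made by the authors, listed as 0.0001 where the count is 0.

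The count test was that of edgeR 4.0.16, run in R 4.3.3: filterByExpr (minimum count 10, minimum total 15), TMM factors, genotype as the one term, the quasi-likelihood test, and Benjamini-Hochberg adjustment over 18931 genes at 0.05. The plan allowed this test for estimated counts. Genes named in full were members past the threshold with at least a 2-fold change and the 8 with the highest mean FPKM; Gstm5, Gstz1 and Gss were given as fully where their classes are described, chosen after their values were seen. Alternatives were DESeq2 1.42.0, other scaling and filters, limma 3.58.1 on log2(FPKM + 0.5), a replicate block and leaving out each library. The scripts were tested on simulated data. Promoter windows came from RefSeq. The members and lists were chosen with earlier results of these data known.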

Additional observations from a re-analysis of the deposited data

How the results depend on the processing

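Of 536 values of single members under the alternatives, 425 stayed on the same side of the threshold and in the same direction, 48 lost the call, 12 gained it and 51 changed sign. With library sizes alone, 5 members were lower, as with FPKM at pseudocounts of 0.5, 0.1 and 1, and 4 with FPKM and no filter, where Chac2 was lost. All tested genes higher and lower then numbered 6459 and 1249 (library sizes), 6248 and 1313 (FPKM, 0.5), 6241 and 1318 (0.1), 6212 and 1309 (1), and 5978 and 1149 (no filter). Leaving out each library gave 5 to 5 higher and 11 to 15 lower members, and 2892 to 3645 higher and 2641 to 3104 lower genes of all tested.

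All 51 sign changes were in members that did not pass the test with TMM factors. With library sizes alone the log2 fold change became 0.35 for Ggt6, 0.29 for Gstm1, 0.12 for Gstm7, 0.21 for Gsto2, 0.15 for Gstp2, 0.13 for Gstp3, 0.061 for Gstt2 and 0.23 for Gstt3. With FPKM (pseudocounts 0.5, 0.1, 1, and no filter) it was 0.32, 0.34, 0.29 and 0.32 for Ggt6, 0.30 for Gstm1, 0.0871, 0.0884, 0.0855 and 0.0871 for Gstm7, 0.13 for Gstp2, 0.11 for Gstp3, 0.11, 0.12, 0.10 and 0.11 for Gstt2 and 0.19, 0.20, 0.17 and 0.19 for Gstt3; Gsto2 was 0.0276 with no filter. Ggt6 became 0.0205 with no count filter and 0.0067 with counts divided by 4. Leaving out 1 library at a time gave -0.81 to 0.035 for Gsta1, -0.023 to 0.42 for Gsta2, -0.29 to 0.28 for Ggt6, -0.072 to 0.10 for Mgst3, -0.21 to 0.10 for Gstm1, -0.43 to 0.18 for Gsto2 and -0.60 to 0.067 for Gstt2. The cause was not tested.

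Whether replicate numbers pair the samples was not settled. Deviations of same-numbered libraries correlated only weakly, at 0.036, 0.057 and 0.051 over 14609 genes. Libraries with different numbers ran from -0.053 to -0.0017, so each library correlated best with its own number. Deviations were taken from group means and cancel within a group. Positive values for same-numbered libraries therefore push the others negative, and the contrast is partly built in. A replicate block gave 5 higher and 14 lower members, and 3269 higher and 3207 lower genes of all tested, with Gsto1 added (adjusted p = 0.0133). Mgst2 and Gsto2 were not tested with filtered FPKM. Depth limits Ggt1, Mgst2 and Gsto2, whose counts were near 0 in a group. Low counts pile up at multiples of 4, so the counts may overstate the number of independent molecules.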

Other observations

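The pseudogene Gstm2-ps1, which was left out of the members by name, had 49.2, 38.0 and 47.8 CPM in the knockout, against 48.3, 39.2 and 53.9 CPM in the control. Its groups overlapped and it did not pass the test (log2 fold change -0.07, edgeR adjusted p = 0.759), while Gstm2 itself fell. Gm3776, which shares 150-base windows with Gsta1, had 15.2, 14.3 and 33.6 CPM in the knockout, against 22.01, 15.1 and 43.3 CPM in the control, and was highest in knockout 3 and control 3, as Gsta1 was. Gm10639 averaged 6.09 ± 2.10 CPM in the knockout and 5.88 ± 3.79 CPM in the control (SD, n = 3 each).

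Among neighbouring members, Ggt1 and Ggt5, 3.1 kb apart, were both higher. Ggt7 and Gss, 48.3 kb apart on chromosome 2, were called higher and lower with TMM factors, and Gss did not pass with library sizes alone (edgeR adjusted p = 0.092).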
